A study of Mus musculus with 30 samples.

Results

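Sarcolipin (Sln), phospholamban (Pln) and the calcium pumps SERCA2 (Atp2a2) and SERCA3 (Atp2a3) were followed in the hypothalamus of mice that carry the human PER3 repeat polymorphism. All probes that the array annotation names for these 4 genes were taken, 8 of 41174 probes, and 6 of them passed the filter on low signal. The knock-in mice carried human exon 18 with 5 repeats (Per3 5/5, labelled Boxhill) or 4 repeats (Per3 4/4, labelled Coach) in place of the mouse exon in every cell, and were compared with wild-type (WT) mice of the same conditional line on a C57BL/6 background. All were adult males, WT included, kept on alternating 3.5 h of light and 3.5 h of darkness and sampled in light cycle 17. The series describes 30 mice with 1 array each: 7 Per3 5/5 and 7 WT arrays in run 1, 8 Per3 4/4 and 8 WT arrays in run 2. The runs differed in scanner and file format. Each knock-in line is 1 targeted line, and no run held both.

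SERCA pumps move calcium from the cytosol into the endoplasmic or sarcoplasmic reticulum and spend ATP to do so. Sarcolipin and phospholamban are small membrane peptides that bind the pump and lower its activity, and sarcolipin also lets the pump spend ATP with less calcium moved, which makes heat in skeletal muscle. SERCA2 is the pump of most tissues, neurons included, in forms that differ at their end, and SERCA3 is found in blood, endothelial and some secretory cells. Sarcolipin is best known from skeletal muscle and the atria of the heart.

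The Sln signal rests on 1 of its 2 probes. The last 30 of the 60 bases of 4 probes are shown, because the probes of 1 gene gave different signals, and the capitals mark a polyadenylation hexamer.
Sln A_52_P413395: attcaagtcaccaggttaaaATTAAActgg
Sln A_51_P297498: cagaggaagaataattccatcctgcagaag
Atp2a2 A_52_P569001: ctcatacttgtacaaagatagttgagccag
Atp2a2 A_51_P451075: atgaagtcagaagcagtagacagatgttgg
The hexamers AATAAA and ATTAAA were searched in the last 30 bases of all 41174 probes. They were present on the printed strand in 4.7% of probes and on either strand in 7.8%, and of the 8 probes described here 1 held one. The array annotation, which names no genome build, places the first Sln probe at chr9:53701574-53701633 on the plus strand, beginning at base 437 of the reference transcript. It places the second at chr9:53701962-53702021, on a cDNA cloned from tongue. The Atp2a2 probe A_52_P569001 belongs to transcript variant 1 (chr5:122906850-122906909, minus strand) and A_51_P451075 to transcript variant 2 (chr5:122903704-122903763, minus strand). Probe A_52_P168097 (chr5:122910660-122910719) is listed for both variants, and A_52_P1156808 (chr5:122946754-122946813) for an unclassified cDNA of neonatal cerebellum. Pln has 1 probe, A_52_P22324 (chr10:53064944-53065003), and Atp2a3 has 1, A_52_P262209 (chr11:72805977-72806036). Whether these stretches lie in exons of the current annotation was not analysed here.

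Levels are log2 intensities relative to the array's 75th percentile, so that 0 is the brightness that 75% of the spots do not exceed, and levels of different probes are not set against each other. Per3 itself has the probe A_51_P258493 (chr4:150379256-150379315), and whether this lies in the exchanged exon was not determined. All 30 arrays had it well above background. It stood at -2.88 ± 0.37 (SD, n = 7) in Per3 5/5 and -2.65 ± 0.38 in WT of run 1, and at -3.45 ± 0.30 (n = 8) in Per3 4/4 and -3.68 ± 0.47 in WT of run 2 (limma, adjusted p = 0.891 and 1). Of 14 hypothalamus markers, 12 were well above background on every array, among them Hcrt, the orexin precursor, and Sim1 and Otp, developmental regulators of hypothalamic neurons, were not above background on most arrays. WT replicate 10 of run 2 stood apart in the marker lists, with a hypothalamus mean of -1.33 (the other 7 WT arrays between 0.03 and 1.67) and a striatum mean of 2.08 (the others between -0.18 and 0.86). WT replicate 14 of the same run had an anterior pituitary mean of 4.21, the other 7 lying between -4.64 and -0.53.

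Sarcolipin was lower in Per3 5/5 than in WT by 3.89-fold on average, and the difference did not pass the threshold once all probes were counted. Its probe A_52_P413395 was well above background on all 30 arrays. The level lay between -2.88 and 0.97 in Per3 5/5 (median -1.01) and between -0.58 and 2.23 in WT of run 1 (median 1.20). All 7 Per3 5/5 arrays lay below the WT mean and 5 of 7 below the lowest WT array, while replicates 1 and 3, at 0.88 and 0.97, lay within the WT range, so the groups overlapped. The group means were -0.99 ± 1.51 (SD, n = 7) and 0.98 ± 1.03 (n = 7). The log2 difference was -1.96 (SE 0.71, 95% interval -3.41 to -0.51), with an unadjusted p = 0.00986 and an adjusted p = 0.796 in limma. Of 29953 probes tested, 7 had a more negative log2 difference and 308 a smaller p. In bulk tissue, fewer cells with a transcript and less transcript per cell cannot be told apart.

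In Per3 4/4 sarcolipin spread more widely, around a higher mean than that of WT. The level lay between -3.76 and 1.12 in Per3 4/4 (median -2.07) and between -4.57 and -1.61 in WT of run 2 (median -2.58). Per3 4/4 replicates 1, 4 and 3, at 1.12, 0.45 and -1.25, lay above every WT array, and the other 5 lay within the WT range. The means were -1.75 ± 1.77 (SD, n = 8) and -2.88 ± 1.16 (n = 8). The log2 difference of 1.13 (SE 0.66, 95% interval -0.23 to 2.49, 5 of 8 arrays above the WT mean) gave an unadjusted p = 0.0991 and an adjusted p = 1 in limma. Without WT replicate 10 it was 1.14, and without WT replicate 14 it was 0.93. Without Per3 4/4 replicate 1 it was 0.72, which is smaller by more than 1.5 times, and that array also stood apart in muscle and cortex markers, as given with the marker lists.

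**Figure D1:**
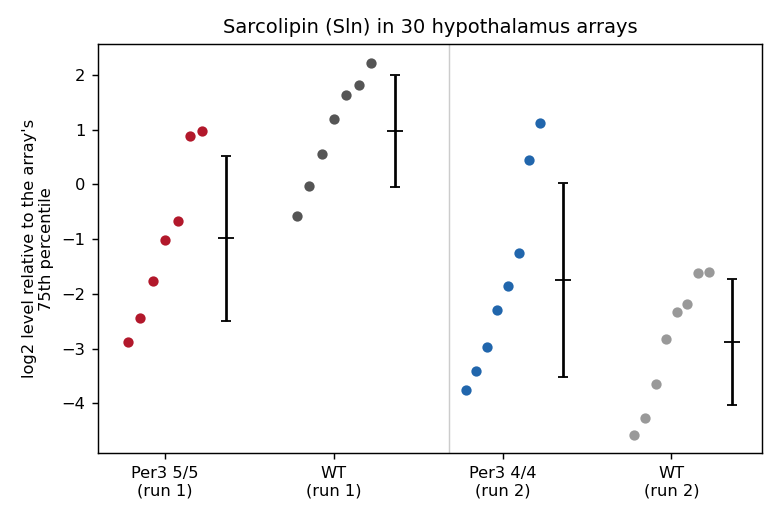
Level of Sln (probe A_52_P413395, log2 relative to the array's 75th percentile, vertical axis) in each of 30 arrays, by genotype and run. Points are arrays in order of level, and bars are the group mean ± SD. Per3 5/5 lies mostly below WT in run 1, and 3 Per3 4/4 arrays lie above all WT arrays of run 2.

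The sarcolipin differences from WT had opposite signs in Per3 5/5 and Per3 4/4, although the 95% interval in Per3 4/4 included 0. Each allele was 1 line in its own run, so an effect of the allele itself was not tested. The 2 differences were compared with each other, since the knock-in genotypes had separate WT arrays. This difference between the effects came to -3.09 on the log2 scale (SE 0.97, 95% interval -5.08 to -1.10), with an unadjusted p = 0.00347 and an adjusted p = 1 in limma. Only 4 of 29953 probes had a more negative difference.

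Among the 6 probes tested, Sln in Per3 5/5 was the only one with an unadjusted p under 0.05 in either knock-in genotype, and none passed the adjusted threshold. Over all probes, 6.17% in Per3 5/5 and 1.73% in Per3 4/4 had an unadjusted p under 0.05, and 2.98% in the difference between the effects. The adjusted threshold was passed by 0% in Per3 5/5, by 0.0134% (4 probes) in Per3 4/4 and by 0% in the difference. The methods' t-test gave 0 adjusted calls in each genotype, with 3120 unadjusted in Per3 5/5 and 295 in Per3 4/4.

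Sarcolipin was also among the most variable transcripts. Its SD within groups was 1.41, against a median of 0.34 over the tested probes, and 99.8% of the tested probes had a smaller SD. From the lowest array, WT replicate 15, to the highest, WT replicate 3, the level spanned 6.80 log2 units, or 111-fold. In unshifted intensity the probe ranged from 117 to 3032 in Per3 5/5, from 655 to 4843 in WT of run 1, from 44 to 2320 in Per3 4/4 and from 21 to 409 in WT of run 2. By mean level the groups were ordered WT of run 1, Per3 5/5, Per3 4/4 and WT of run 2. The WT mean of run 2 lay 3.85 log2 units below that of run 1, although these mice had the same genotype and protocol, and run and WT set cannot be told apart, so knock-in arrays were set against WT of their own run. Neighbours in that order lay within about the spread of their arrays, apart from WT of run 1 and Per3 5/5, where the mean difference exceeded both SDs.

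Arrays of a run with the same recorded scan time were taken as a slide, which gave 4 slides per run, each with both genotypes. In run 1 the Per3 5/5 mean of sarcolipin lay below the WT mean of its slide on 4 of 4 slides, by -0.44, -1.56, -2.72 and -1.93. In run 2 the Per3 4/4 mean lay above on 3 slides, by 1.60, 2.10 and 1.56, and below on the other one, by -0.73. With slide as a fixed block the log2 difference was -1.80 (unadjusted p = 0.00785, adjusted p = 0.239, limma) in Per3 5/5 and 1.13 (unadjusted p = 0.0565, adjusted p = 0.999) in Per3 4/4.

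The second Sln probe, A_51_P297498, gave a signal well above background in run 1 on 2 WT arrays and 0 of Per3 5/5, and in run 2 on 1 Per3 4/4 array and 0 of WT. It was not tested, no fold is given, and it neither repeats nor contradicts the first probe.

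Phospholamban, the inhibitor best known from heart muscle, was at the limit of detection in run 1. There 1 of the 7 Per3 5/5 arrays and 0 of the WT arrays had it well above background. In run 2 each genotype had 7 such arrays of 8, so that the probe entered the test through run 2, and no fold is given for Per3 5/5. The level lay between -5.45 and -3.59 in Per3 4/4 (median -4.61) and between -5.52 and -4.36 in WT of run 2 (median -4.71). Per3 4/4 replicates 3 and 2, at -3.59 and -4.21, lay above every WT array, and the other 6 lay within the WT range. The log2 difference was 0.18 (SE 0.25, 95% interval -0.33 to 0.69, adjusted p = 1, limma). It was 0.03 without Per3 4/4 replicate 3 and lay between 0.03 and 0.30 with each array left out.

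The SERCA2 gene was measured by 3 probes on all 30 arrays, and none showed a difference beyond the spread between mice. For variant 1 (A_52_P569001) the level in run 1 lay between 2.75 and 4.02 in Per3 5/5 (median 3.47) and between 3.07 and 3.69 in WT (median 3.54). In run 2 it lay between 1.60 and 2.39 in Per3 4/4 (median 2.28) and between 1.42 and 2.50 in WT (median 2.17). The knock-in and WT arrays of a run overlapped, with log2 differences of -0.06 (SE 0.17, 95% interval -0.41 to 0.28) and 0.05 (SE 0.16, -0.28 to 0.37). The first of these turned to 0.0022 with normexp background correction and to 0.07 with array weights, and the second to -0.055 without WT replicate 10. For variant 2 (A_51_P451075), measured between 2.93 and 4.04 over all arrays, the medians were 3.76 and 3.65 in run 1 and 3.72 and 3.70 in run 2, knock-in first, with ranges that overlapped in each run. The differences were 0.15 (SE 0.14, 95% interval -0.13 to 0.43) and 0.06 (SE 0.13, -0.20 to 0.32). The probe of both variants (A_52_P168097) gave -0.04 (SE 0.24, -0.54 to 0.46) and 0.04 (SE 0.23, -0.43 to 0.51), with medians between -0.26 and -0.10 in the 4 groups, and the second of these was -0.10 without WT replicate 10. The adjusted p of these 3 probes lay between 0.907 and 1 in limma. Of these 6 intervals, the widest reaches -0.54 on the log2 scale. The probe A_52_P1156808 was well above background on 0 of 30 arrays.

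The SERCA2 probes did not move as one. The WT mean of variant 1 lay 1.34 log2 units lower in run 2 than in run 1, that of variant 2 lay 0.04 lower and that of the shared probe 0.24 lower. With group means removed, the variant 1 and shared probes rose and fell together over the 30 arrays (Pearson r = 0.63, permutation p = 0.00013, adjusted p = 0.00195 over 15 pairs of member probes, and Spearman rho = 0.58, permutation p = 0.00094, adjusted p = 0.0141). That r was 0.48 in run 1, 0.77 in run 2 and, with the 2 arrays most distant from the median left out, 0.64. The variant 1 and variant 2 probes gave r = 0.05 (rho = 0.11, permutation p = 0.796 and 0.59, adjusted p = 0.796 and 0.731). Pln and the variant 2 probe gave r = 0.56 (permutation p = 0.00345, adjusted p = 0.0259, and rho = 0.44, adjusted permutation p = 0.17), with 0.18 in run 1, where Pln was mostly not above background, 0.75 in run 2 and 0.45 without the 2 most distant arrays. Sln correlated with the 5 other member probes at r between -0.30 and 0.31, with adjusted permutation p of 0.233 or more.

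SERCA3 was above background on all arrays, and its group means lay between -1.99 and -1.87. In run 1 the level lay between -2.24 and -1.61 in Per3 5/5 (median -2.09) and between -2.31 and -1.50 in WT (median -1.85). In run 2 it lay between -2.34 and -1.66 in Per3 4/4 (median -1.97) and between -2.55 and -1.26 in WT (median -1.84). The knock-in ranges overlapped those of WT. The log2 difference was -0.01 (SE 0.16, 95% interval -0.33 to 0.31) in Per3 5/5, where the sign turned under quantile normalization (0.02) and array weights (0.14), and -0.12 (SE 0.15, -0.41 to 0.18) in Per3 4/4, where it lay between -0.21 (without WT replicate 13) and -0.03 (without WT replicate 14) with each array left out. The adjusted p was 1 in both, by limma.

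**Figure D2:**
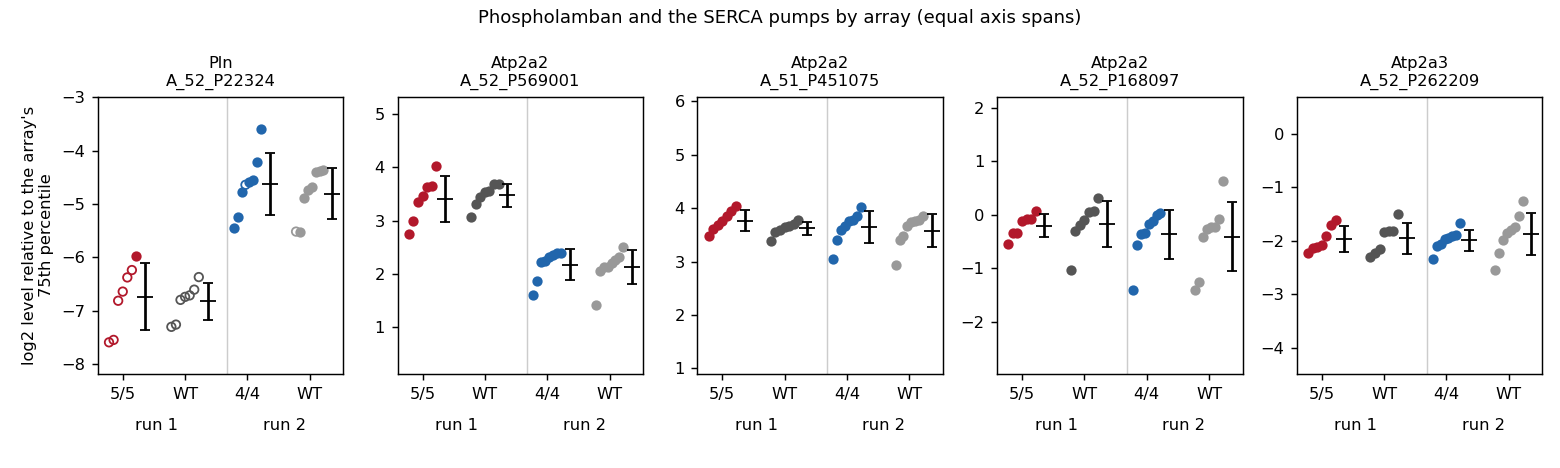
Level of the other 5 tested probes (log2 relative to the array's 75th percentile, vertical axes of equal span) in each array, by genotype and run. Filled points are well above background and open points are not, and bars are the group mean ± SD. Pln is mostly open in run 1, Atp2a2 A_52_P569001 is lower in run 2, and knock-in and WT arrays overlap throughout.

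**Figure D3:**
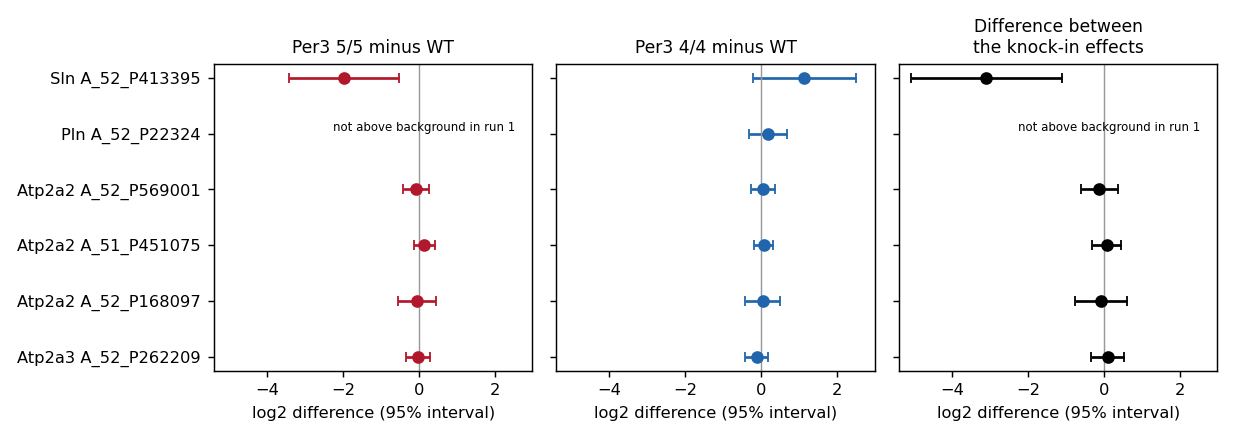
Log2 differences (horizontal axes) of the 6 tested probes in limma, with 95% intervals, for each knock-in genotype against WT of its run and for the difference between the effects. Of the intervals drawn, those of Sln in Per3 5/5 and in the difference do not reach 0. Pln has no value where it was not above background in run 1.

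Other genes of calcium handling were taken from a list of 67 genes in 9 roles that excluded the 4 members. Probes were found for 62 genes, and 116 probes of 61 genes were tested. None passed the adjusted threshold by limma or the methods' t-test in either genotype. At an unadjusted p under 0.05, 8 probes were lower and 2 higher in Per3 5/5, which is 8.62% of the list beside 6.17% of all probes. In Per3 4/4, 0 were lower and 1 higher, or 0.862% beside 1.73%. In the difference between the effects, 3 were lower and 2 higher, or 4.31% beside 2.98%. The median log2 difference was -0.06 in Per3 5/5 and 0.01 in Per3 4/4, against -0.02 and 0.01 over all tested probes.

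By role, the release channels (ryanodine and inositol trisphosphate receptors, 17 probes of 6 genes) had 13 probes lower and 4 higher in Per3 5/5, with a median log2 difference of -0.18 and 1 probe at an unadjusted p under 0.05 (6.17% of all probes). In Per3 4/4 they had 10 lower and 7 higher, with a median of -0.01 and 0 at that level (1.73% of all probes). The other pumps (12 probes of 5 genes) had 9 lower in Per3 5/5, with a median of -0.10 and 2 at an unadjusted p under 0.05, and 6 lower in Per3 4/4, with a median of 0.04. The calcium-binding proteins of the lumen (18 probes of 11 genes) had medians of 0.06 and 0.04, with 11 and 13 probes higher and 0 at that level in either genotype. Over all tested probes 54.5% were lower in Per3 5/5 and 48.3% in Per3 4/4. Another SERCA micropeptide, Arln, was measured by 2 probes, with log2 differences of -0.15 and 0.16 in Per3 5/5 and 0.03 and 0.15 in Per3 4/4.

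In Per3 5/5 the smallest p belonged to Orai2, a calcium channel opened when the reticulum is empty. Its probe stood at -0.06 ± 0.09 (SD, n = 7) against 0.50 ± 0.29 in WT, and all 7 arrays lay below the WT mean. The log2 difference was -0.57 (SE 0.13, unadjusted p = 9.95e-05, adjusted p = 0.426, limma), and in Per3 4/4 it was 0.09 (SE 0.12). Asph, whose locus also encodes the reticulum protein junctin, gave 0.47 (SE 0.16, 7 of 7 arrays above the WT mean) by 1 probe, and between -0.06 and 0.03 by its other 4 tested probes. Camk2b, a subunit of the calmodulin-dependent kinase II that can phosphorylate phospholamban, gave -0.36 (SE 0.13, 7 of 7 arrays below). Hax1, a partner of phospholamban, gave 0.34 (SE 0.13, 6 of 7 above) by 1 probe and 0.13 and 0.07 by the others. Ppp1r1a, an inhibitor of protein phosphatase 1, gave -0.34 (SE 0.15) and -0.29 (SE 0.18), each with 6 of 7 arrays below. The adjusted p of the last 4 genes was 0.796 or more in limma.

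In Per3 4/4 the smallest p belonged to Atp2c1, the calcium and manganese pump of the Golgi. One probe gave 0.21 (SE 0.10, 8 of 8 arrays above the WT mean, unadjusted p = 0.035, adjusted p = 1, limma), and its other 3 probes gave between -0.0046 and 0.17. Another of these, A_51_P204630, gave -0.67 (SE 0.30, unadjusted p = 0.0317, adjusted p = 0.796) in Per3 5/5, with 6 of 7 arrays below. Ppp1r3a, a muscle subunit of protein phosphatase 1, followed with 2 probes near background, well above it on 4 of 8 Per3 4/4 and 2 of 8 WT arrays for the first and on 4 of 8 and 1 of 8 for the second, so no fold is given. Its remaining probe was well above background on 5 of 8 and 4 of 8 arrays. Calr (calreticulin, a calcium-binding protein of the reticulum) gave -0.25 (SE 0.15), and Jph2, which ties the reticulum to the cell membrane in muscle, gave 0.42 (SE 0.26). The adjusted p of each was 1. The remaining SERCA gene, Atp2a1, the pump of fast skeletal muscle, gave 0.20 (SE 0.26) and -0.14 (SE 0.80) in Per3 5/5 by its 2 probes, and 0.08 (SE 0.25) and 0.74 (SE 0.75) in Per3 4/4.

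In the difference between the effects, the smallest p again belonged to Orai2, at -0.65 (SE 0.17, unadjusted p = 0.000708, adjusted p = 1, limma). Mcub, a subunit that lowers uptake through the mitochondrial calcium uniporter, gave 1.04 (SE 0.44, unadjusted p = 0.0247), from 0.57 in Per3 5/5 and -0.47 in Per3 4/4. Hax1 gave 0.39 (SE 0.18) by the probe that gave 0.34 in Per3 5/5. Itpr2, an inositol trisphosphate receptor, gave -0.43 (SE 0.21) by 1 probe, and between -0.31 and 0.04 by its other 4. Atp2c1 gave -0.84 (SE 0.41) by A_51_P204630. The adjusted p of each was 1 in limma.

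**Figure D4:**
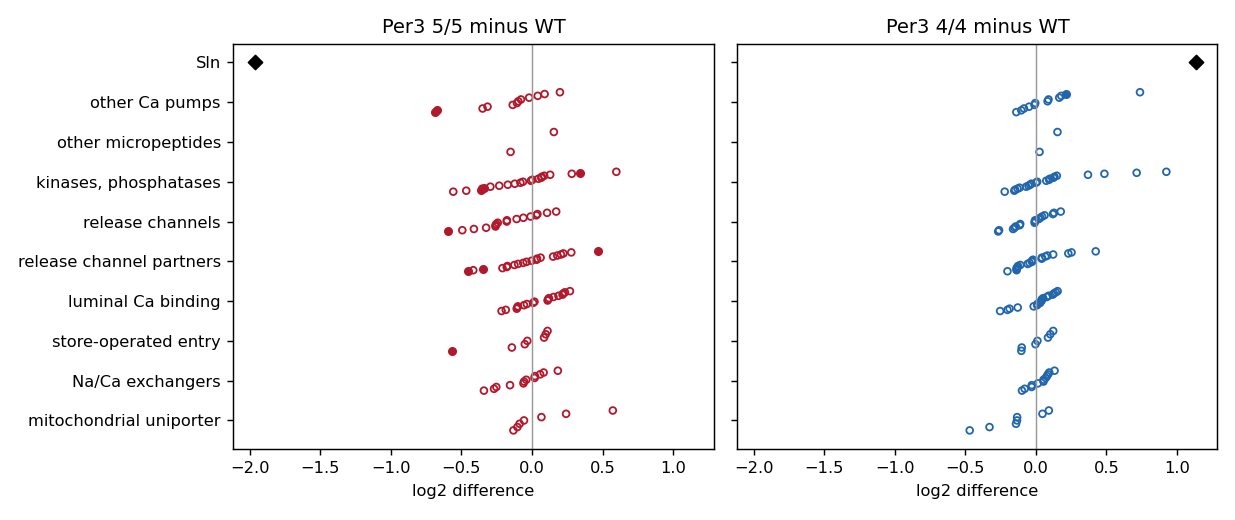
Log2 difference from WT (horizontal axes) of Sln (diamond) and of 116 probes of the calcium handling list by role, in Per3 5/5 (left) and Per3 4/4 (right). Filled circles have an unadjusted p under 0.05, and none passed the adjusted threshold. Sln stands at -1.96 on the left and at 1.13 on the right, where it was 0.72 without Per3 4/4 replicate 1 and 0.51 with array weights.

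The transcripts whose levels most resembled that of sarcolipin were sought over the 30 arrays with group means removed, as a description, since all arrays share 1 tissue dissection and scaling. They were Cxcl5 (r = 0.78) and Ccl3 (0.75), both chemokines, Lct (lactase, 0.74), Hopx (a homeodomain protein, 0.73), the claudin Cldn22 (0.73), the receptor chain Il20rb (0.72), the cytokine Il16 (0.71), Arhgap25 (0.71), the chloride channel Ano2 (0.70) and Spink8 (a protease inhibitor, 0.68). In run 1 these r lay between 0.74 and 0.91, and in run 2 between 0.59 and 0.76. Hopx, Il16 and Arhgap25 were above background on all 30 arrays, Spink8 on 29, Ccl3 on 26, Lct on 22, Ano2 on 19, Il20rb on 16, and Cxcl5 and Cldn22 on 13. All 10 had a negative log2 difference in Per3 5/5, as had 54.5% of all tested probes. Of the 3 genes above background on every array, Il16 gave -0.93 (unadjusted p = 0.00473), Arhgap25 -0.65 (unadjusted p = 0.0293) and Hopx -0.34 (unadjusted p = 0.2) in Per3 5/5, and 0.10, 0.25 and -0.11 in Per3 4/4.

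The SERCA probes had other neighbours. Variant 1 of Atp2a2 went with Nmnat2 (r = 0.89), Srgap1 (0.88), Pdzd8 (0.88), Camk2a (0.87) and Mtmr3 (0.87). Variant 2 went with Ttc19 (0.85), Slc35e2 (0.85), Ppp4r4 (0.84), AI593442 (0.83) and AU040829 (0.82). The shared probe went with Nsf (0.96), which drives vesicle fusion, Mum1 (0.93), A830010M20Rik (0.92) and AU040320 (0.92). Atp2a3 went with BC051628 (0.92), Plekha4 (0.89), the melanocortin receptor Mc3r (0.88), Fam83f (0.87) and 1 transcript without a gene symbol (0.88).

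Markers of cortex and hippocampus and of choroid plexus moved with sarcolipin from array to array. Those of thalamus, striatum, ependyma and pituitary showed no such relation (r between -0.16 and 0.17). Of 13 lists of markers, the mean of the 7 genes for cortex and hippocampus followed Sln most closely over the 30 arrays (r = 0.61, permutation p = 0.00034, adjusted p = 0.00442, and rho = 0.62, permutation p = 0.0005, adjusted p = 0.0065), with r = 0.83 in run 1, 0.50 in run 2 and 0.56 without the 2 arrays in which Sln was farthest from its median. This order did not hold throughout. Without Per3 4/4 replicate 1, r was 0.52 for this list and 0.53 for the choroid plexus. In run 2 the choroid plexus (0.63), skeletal muscle (0.64) and meninges (-0.71) lists had an r of larger size. The choroid plexus list, with probes for 13 of 14 genes, gave r = 0.57 (permutation p = 0.0032, adjusted p = 0.0208) and rho = 0.56 (permutation p = 0.00422, adjusted p = 0.0274), with 0.50 in run 1, 0.63 in run 2 and 0.48 without those 2 arrays.

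The means of both lists were also shifted between genotypes, which was not tested list by list. The choroid plexus mean was lower by -0.68 on the log2 scale in Per3 5/5 and higher by 0.88 in Per3 4/4, the same signs as Sln, with SDs within groups from 0.35 to 1.43. Its summed level, in multiples of the 75th percentile, was 15.98 to 30.4 in Per3 5/5 (median 23.7), 21.7 to 32.2 in WT of run 1 (median 25.8), 11.9 to 60.7 in Per3 4/4 (median 25.8) and 8.52 to 58.7 in WT of run 2 (median 17.4). The Enpp2 probe gave the most signal to this sum, 8 of its 13 genes were above background on every array, and Ttr (transthyretin), its best known marker, gave -2.01 and 2.06 (unadjusted p = 0.166 and 0.131, limma). The cortex and hippocampus mean differed by -0.60 in Per3 5/5 and by -0.39 in Per3 4/4, with SDs from 0.42 to 0.81. The Per3 4/4 value rested on single arrays, at -0.14 without WT replicate 10, which stood at -0.12 (the other WT arrays of run 2 between -2.57 and -1.18), and at -0.60 without Per3 4/4 replicate 1. Its summed level was 21.7 to 54.9 in Per3 5/5 (median 25.1), 24.9 to 84.4 in WT of run 1 (median 58.4), 13.5 to 45.8 in Per3 4/4 (median 15.9) and 12.7 to 77.4 in WT of run 2 (median 17.2). The Nrgn probe gave the most signal to this sum, 3 of its 7 genes were above background on every array, and Neurod6 gave -1.99 (unadjusted p = 0.0477) in Per3 5/5 and 0.05 in Per3 4/4. The 4 Per3 4/4 arrays with the highest Sln, replicates 1, 4, 3 and 2, were those with the highest choroid plexus mean, at 0.32, 0.72, -0.61 and 0.66, while the other 4 lay between -2.38 and -2.10. The first 4 were the Per3 4/4 arrays of slides 5 and 6, and the other 4 those of slides 7 and 8. This split thus coincided with slide, for which the permutation p values do not allow. The orders differed in other groups: Per3 5/5 replicate 2, the lowest in Sln, had a choroid plexus mean of -1.28, above its group mean of -1.62, and WT replicate 14, second lowest in Sln among WT of run 2 and apart in pituitary markers, had -0.72, above its group mean of -1.89. Replicate 1 of Per3 4/4 alone stood high in the cortex and hippocampus list, at -0.70, with the other 7 between -3.26 and -2.02. Without that array, r with Sln in run 2 was 0.59 for the choroid plexus and 0.27 for the cortex and hippocampus, and without WT replicate 10 it was 0.66 and 0.64. Both arrays were chosen after the values were seen. The part of these tissues in the Sln difference was not tested.

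For markers of muscle, where sarcolipin is best known, r had opposite signs in run 1 and run 2, and the difference between the runs was not tested. The 10 skeletal muscle genes gave r = 0.48 with Sln (permutation p = 0.011, adjusted p = 0.0383, and rho = 0.40, permutation p = 0.0196, adjusted p = 0.0737), but -0.06 in run 1 and 0.64 in run 2, so the relation did not hold in run 1. Their mean differed by -0.01 in Per3 5/5 and 0.42 in Per3 4/4. Per3 4/4 replicate 1, the highest in Sln of its group, stood at -0.94, with the other 7 between -3.91 and -3.50. Without it the list mean differed by 0.08 in Per3 4/4, and r with Sln fell to 0.26 over 29 arrays and to 0.41 in run 2. Replicates 4 and 3, next highest in Sln, stood at -3.67 and -3.63. Their summed level was 1.56 to 2.42 in Per3 5/5 (median 2.16), 1.61 to 2.62 in WT of run 1 (median 1.90), 1.44 to 9.43 in Per3 4/4 (median 2.26) and 1.36 to 4.80 in WT of run 2 (median 1.59). The probe of Pvalb, which neurons also express, gave the most signal to this sum, 4 of 10 genes were above background on every array, and Ckm, the muscle creatine kinase, was above background on 3 of 30 arrays. The 8 heart muscle genes gave r = 0.32 (permutation p = 0.124, adjusted p = 0.269) and rho = 0.19 (permutation p = 0.366, adjusted p = 0.432), with -0.32 in run 1, 0.50 in run 2 and 0.15 without the 2 arrays. The meninges list ran the other way (r = -0.50, permutation p = 0.0118, adjusted p = 0.0383, and rho = -0.44, permutation p = 0.0283, adjusted p = 0.0737), with -0.10 in run 1, -0.71 in run 2 and -0.35 without the 2 arrays. The blood list gave r = 0.42 (permutation p = 0.0371, adjusted p = 0.0966) and rho = 0.44 (permutation p = 0.028, adjusted p = 0.0737). The hypothalamus, ependyma, pituitary, thalamus, striatum, smooth muscle and glial lists gave r between -0.24 and 0.17, with an adjusted permutation p of 0.351 or more. Their rho lay between -0.31 (hypothalamus) and 0.23 (striatum), with an adjusted permutation p of 0.209 or more. Some r changed sign by run, with -0.54 in run 1 and 0.34 in run 2 for smooth muscle, and 0.26 and -0.27 for the pituitary. The hypothalamus list gave 0.03 and -0.34, and -0.54 in run 2 without WT replicate 10.

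**Figure D5:**
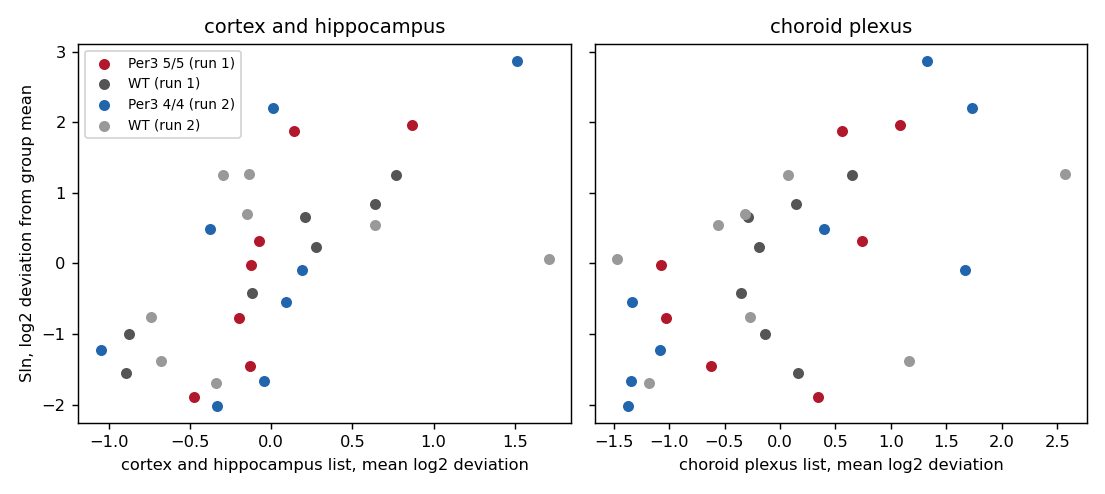
Deviation of Sln from its group mean (log2, vertical axis) against the mean deviation of the cortex and hippocampus markers (left) and the choroid plexus markers (right) in 30 arrays, coloured by genotype and run. Pearson r is 0.61 on the left and 0.57 on the right.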

How the data were processed

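Cy3-labelled hypothalamic RNA was hybridized to Agilent 1-colour arrays. The authors deposited background-subtracted spot intensity from Feature Extraction (10.7.1.1 per the submitters' processing notes), with no scaling across arrays, and their own log2 values shifted to the 75th percentile. These log2 values were also centred on each probe's median within run, and 13 of 14 columns of run 1 held another array of the same genotype (r of at least 0.9998). They served as an alternative only.

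Control and outlier spots were removed, log2 intensities were shifted by the 75th percentile of each array and averaged over the spots of a probe (1 missing value in a marker list was taken with its outlier spot kept). The 75th percentile before the shift ranged from 347 to 1543. Probes well above background on at least 50% of the arrays of 1 genotype were tested, 29953 of 41174. Genotype and run were the terms of linear models over 30 arrays (limma 3.58.1, R 4.3.3), with Benjamini-Hochberg adjustment at 0.05. With 200 of 29953 simulated probes shifted by 2 log2 units, 96.5% were recovered in Per3 5/5 with 12 unchanged probes called, and 100.0% in Per3 4/4 with 9 such calls. The simulated noise was independent between probes and arrays, without correlation within a slide. These shares cover probes of all spreads (median SD 0.34 over the tested probes). They do not give the recovery of a probe as variable as Sln (SD 1.41). Correlations used 100000 two-sided permutations within groups in Python 3.11.15. Slide was left out of account in these permutations, and no correlation adjusted for slide is given. The correlation between arrays of a slide was estimated at 0.214 in limma. The rank product of the methods was not run.

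The members and gene lists were chosen with earlier results of these data known. The authors' own analysis, by t-test, ANOVA or rank product, counted Sln as differentially expressed in both knock-in genotypes. Named were all member probes, the 5 calcium list probes of smallest p per comparison (Atp2a1 was added as the remaining SERCA gene), the 10 (Sln) or 5 genes most like a member, and markers by level; 1 gene most like a member is not reported here. Alternatives were normexp background correction (offset 50, on median spot signals), quantile normalization, a percentile taken only over probes that every array detected, the deposited log2 values, other filters on dim probes, outlier spots kept, the arrays of the run alone, slide or replicate number as a block, array weights, trended robust variances, the methods' t-test and each array left out. Each array is taken as 1 mouse, as the series' design text states. The methods give 8 mice per genotype, fewer than the 15 WT arrays, and where the other WT mice came from was not given in the sources used here. Before deposit, 1 Per3 5/5 and 1 WT array were left out for quality, per the methods. The number of arrays limits precision.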

Additional observations from a re-analysis of the deposited data

Results flagged for a closer look

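Of 24 combinations of a tested probe and a group of arrays, 2 held an array far from the others by Dixon's criterion, and chance alone flags about 1 in 20 groups. For Atp2a2 variant 1 (A_52_P569001), WT replicate 10 of run 2 stood at 1.42, and the other 7 arrays between 2.05 and 2.50. For the probe of both Atp2a2 variants (A_52_P168097), Per3 4/4 replicate 5 stood at -1.41, and the other 7 between -0.57 and 0.03. No Sln array was so flagged in any group.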

How the results depend on the processing

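The Sln difference kept its sign under all alternatives, and no member probe passed the adjusted threshold under any of them. In Per3 5/5 it ran from -2.34 (array weights, adjusted p = 0.16) to -1.77 (normexp), with adjusted p from 0.16 to 0.947, and from -2.29 to -1.65 with each array left out. In Per3 4/4 it ran from 0.51 (array weights) to 1.13, and from 0.72 to 1.42 with each array left out; array weights thus reduced it by more than 1.5 times. The difference between the effects ran from -3.09 to -2.57, and from -3.42 to -2.68 with each array left out. No calcium list probe passed the threshold under any alternative (0 in each, arrays left out included). Over all probes, 10 passed in Per3 5/5 with array weights against 0 in the analysis reported, and 0 to 3 with each array left out (3 without WT replicate 7). In Per3 4/4, 4 passed in the analysis reported, 0 to 9 under the alternatives (0 with the arrays of the run alone, 9 with array weights) and 2 to 8 with each array left out. Counts at an unadjusted p under 0.05 in limma moved more. In Per3 5/5 the count of 1849 ran from 806 (without Per3 5/5 replicate 3) to 2913 (without Per3 5/5 replicate 1), and was 4000 with slide as a fixed block. In Per3 4/4 the count of 519 ran from 352 (without Per3 4/4 replicate 4) to 1555 (without WT replicate 13). It was 225 with the arrays of the run alone, 245 with normexp and 1604 with array weights. The list shares stand beside the counts of the analysis reported.

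The signs that turned belonged to small differences: Atp2a2 A_52_P569001 in Per3 5/5 (0.0022 with normexp, 0.066 with array weights) and Atp2a3 in Per3 5/5 (0.015 with quantile normalization, 0.14 with array weights). The cause was not tested. With each array left out, Atp2a2 A_52_P569001 ran from -0.17 to 0.045 in Per3 5/5 and from -0.055 to 0.13 in Per3 4/4, A_51_P451075 from -0.030 to 0.15 in Per3 4/4, A_52_P168097 from -0.18 to 0.043, from -0.10 to 0.19 and, for the difference between the effects, from -0.22 to 0.067, and Atp2a3 from -0.074 to 0.062 in Per3 5/5.

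Per3 5/5 and WT of run 1 share replicate numbers. Their deviations correlated above 0.1 in 2 of 7 pairs, so these numbers did not pair the arrays, and 1 array correlated best with its own number. The numbers used are those of the spot intensities. The deposited log2 values number 13 of the 14 arrays of run 1 otherwise, and which numbering is right is not known. Since the numbers did not pair the arrays, the SE and p of a replicate block are not those of a paired design. With the replicate block, Sln gave -1.96 (SE 0.34, unadjusted p = 0.000278, adjusted p = 0.43, limma) and 0 probes passed the threshold. Per3 4/4 and WT of run 2 share a single number, 8, so no such fit could be made there. The probe of Pln in run 1 and the second Sln probe were limited by signal over background.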
